A study of Caenorhabditis elegans with 2 samples.

Results

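Binding of SMA-9 was examined at 10 genes of Caenorhabditis elegans whose products act outside the cell or at its membrane on bone morphogenetic protein (BMP) signalling. They are sma-10, drag-1, unc-40, tsp-12, tsp-14, tsp-21, lon-2, crm-1, lon-1 and adt-2, and they were taken by name from the 19973 protein-coding genes of the annotation. The data come from sequencing of immunoprecipitated chromatin (ChIP-seq) of whole hermaphrodites of strain LW1254 at the L2 larva stage, collected 22 hours after synchronization by L1 starvation, in 2 biological replicates of 1 group. LW1254 carries the integrated array jjIs1254 in an unc-119(ed4) background. The array holds sma-9C2::gfp, which is sma-9 fused at its C-terminal end to GFP, with unc-119(+) as rescue, and an anti-GFP antibody was used. No other strain, stage or treatment is in the series, so no condition could be compared with another, and a whole larva mixes the signal of all cell types.

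SMA-9 is a zinc-finger protein of the Schnurri family, which works with Smad proteins in the DBL-1 pathway, the BMP-like pathway that sets body size and patterns the postembryonic mesoderm in this worm. The ligand DBL-1 binds a pair of receptor kinases, SMA-6 and DAF-4, which activate the Smads SMA-2, SMA-3 and SMA-4. The 10 genes code for proteins that raise or lower the signal before it reaches the Smads or act on its outcome in the matrix. The receptor partners SMA-10, DRAG-1 and UNC-40 and the tetraspanins TSP-12, TSP-14 and TSP-21 promote signalling, the glypican LON-2 limits access of the ligand, CRM-1 is a cysteine-rich protein that promotes it, LON-1 is a CAP-family protein that restricts body length, and ADT-2 is an ADAMTS protease of the matrix.

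SMA-9 peaks were found at 8 of the 10 genes, and lon-2 and tsp-14 had none. IDR stands for irreproducible discovery rate, a measure of how well the ranks of calls hold between replicates. The 7065 peaks of the IDR list are the calls of highest signal in the list pooled from both replicates. A single listed peak therefore need not hold its rank in each replicate. A gene was counted if the summit of an IDR peak lay inside the gene or at most 3000 bp from either of its ends. By this rule 39.8% of all protein-coding genes were called. There were 15 such peaks, with sma-10, crm-1 and lon-1 carrying the strongest. The modulator genes are long, with a median length of 7366 bp against 2027 bp for all protein-coding genes, so their searched regions are long too. Among genes of 5000 bp or more, 4 of the 6 modulator genes were called, and 48.8% of all such genes were. The modulator regions held 11.4 summits per 100 kb, against 7.03 per 100 kb over the regions of all protein-coding genes. With 10 genes that were proposed when results of these data were known, these shares are a description and were not tested.

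The sequence under the strongest peak is shown for 5 of the 8 called genes, to set their Smad-type letters side by side. The unc-40 peak, which falls between those of tsp-12 and adt-2 in signal, is not shown. They are from the RefSeq genome, on the forward strand of ce11, in order of signal, each as the whole interval of the authors' list. Capitals mark GTCT or its complement AGAC, the core that Smad proteins recognise, and TGATAA or its complement TTATCA, a site of the GATA type.
sma-10, chrIV:274247-274403: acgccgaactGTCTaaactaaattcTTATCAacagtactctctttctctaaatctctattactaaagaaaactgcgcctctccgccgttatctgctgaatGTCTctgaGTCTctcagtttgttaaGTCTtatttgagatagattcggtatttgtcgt
crm-1, chrV:10320307-10320445: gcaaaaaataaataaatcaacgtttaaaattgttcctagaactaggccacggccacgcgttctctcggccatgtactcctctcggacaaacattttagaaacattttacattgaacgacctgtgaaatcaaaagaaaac
lon-1, chrIII:5472883-5473024: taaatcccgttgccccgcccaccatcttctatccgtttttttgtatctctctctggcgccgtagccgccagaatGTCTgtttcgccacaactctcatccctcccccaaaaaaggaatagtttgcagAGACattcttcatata
tsp-12, chrIV:10151624-10151700: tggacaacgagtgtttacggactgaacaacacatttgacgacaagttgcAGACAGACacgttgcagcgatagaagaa
adt-2, chrX:7596086-7596355: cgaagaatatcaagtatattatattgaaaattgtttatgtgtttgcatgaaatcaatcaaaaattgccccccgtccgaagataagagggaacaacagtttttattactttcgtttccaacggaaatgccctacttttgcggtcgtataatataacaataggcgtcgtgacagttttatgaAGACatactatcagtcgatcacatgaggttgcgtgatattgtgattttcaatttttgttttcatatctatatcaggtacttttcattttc

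The sma-10 sequence held 4 Smad cores and 1 GATA-type site. The tsp-12 sequence held 2 Smad cores in direct contact, each within the longer Smad element CAGAC. The lon-1 sequence held 2 Smad cores, 1 of them within CAGAC, and 1 match to the GC-rich element GGCGCC. The adt-2 sequence held 1 Smad core, and the crm-1 sequence held neither marked motif. The intervals run from 77 bp at tsp-12 to 270 bp at adt-2, so these counts are not over equal lengths. The crm-1, tsp-12 and adt-2 summits shown lie nearer to the 5' ends of the neighbours gna-1, copg-1 and C44E12.1.

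Within 50 bp of the summit, searched on both strands, 12 of the 15 modulator peaks held GTCT, against 59.4% of all 7065 IDR peaks. The longer element CAGAC, which contains the core, was in 3 of the 15 and in 18.6% of all. TGATAA was in 2 of the 15 and in 20.3% of all, and GAGAGA in 5 of the 15 and in 25.6% of all. The palindrome GTCTAGAC was in 0 of the 15 and in 0.113% of all, GGCGCC in 1, at lon-1, and in 2.42% of all, and the E-box CACGTG in 0 and in 7.36% of all. A short word is frequent in any window, and a match is a description of the letters and not a bound site. The windows of the modulator peaks had a median of 42.6% G and C (range 32.7 to 60.4%), against 43.6% over all IDR peaks.

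**Figure D1:**
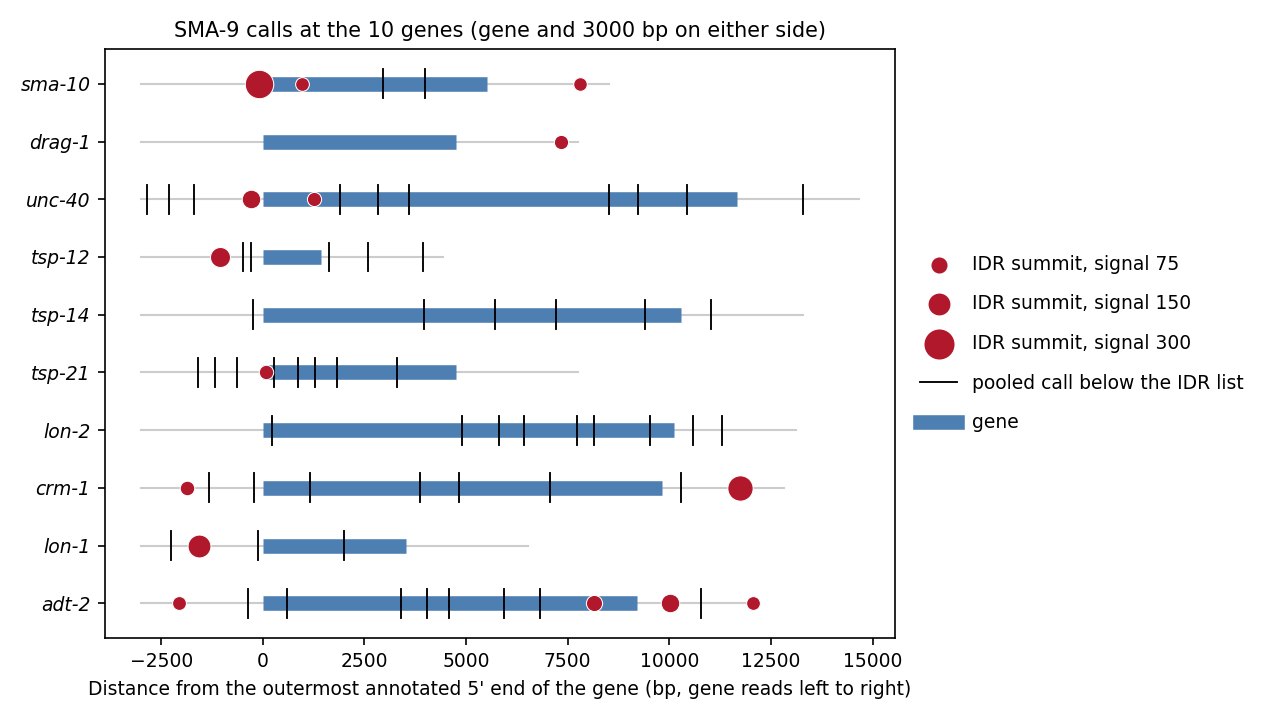
Each row is a gene drawn from its outermost annotated 5' end to its 3' end (blue) with 3000 bp on either side (grey), and the horizontal axis is the distance in bp from that 5' end. Red circles are summits of IDR peaks, with an area that follows the pooled signal, and black ticks are calls of the pooled list below the IDR list. The largest circle is the sma-10 promoter peak (signal 311), and lon-2 and tsp-14 have ticks only.

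Among the receptor partners, sma-10 carried the strongest peak of the modulator genes. SMA-10 is a membrane protein with leucine-rich repeats and immunoglobulin domains that binds the receptors. The gene (WBGene00020649, forward strand, IV 274420 to 279943) had its main summit 89 bp upstream of its first annotated 5' end. The pooled signal there was 311, which is the authors' caller value and has no fixed range. It was higher than 91.2% of the IDR peaks. The signal was 154 in replicate 1, at rank 846 of its nuclear calls, and 167 in replicate 2, at rank 434. The chemoreceptor gene srh-282 points the other way, with a 5' end 932 bp from the same summit. Further sma-10 peaks were weak. A peak at 275247 to 275516 lay in an intron, 780 bp downstream of a 5' end, with a pooled signal of 72.5 (36.6 in replicate 1 and 37.6 in replicate 2). A peak at 282089 to 282358 lay 2281 bp past the 3' end, with a pooled signal of 71.3 (50.7 and 21.4 in replicates 1 and 2), and was closer to a 5' end of best-19 at 1423 bp.

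The 2 other receptor partners lie on another chromosome and differed from each other. UNC-40 is the netrin receptor of the DCC family, and it also acts with DRAG-1 in this pathway. The gene unc-40 (WBGene00006776, reverse strand, I 5679837 to 5691503) had a peak 284 bp upstream of its single 5' end, at 5691652 to 5691921. The pooled signal was 133, with 75.7 in replicate 1 (rank 2678) and 59.1 in replicate 2 (rank 2940). Its upstream region is shared with npp-7, a nuclear pore gene that starts 477 bp from the summit on the other side. A weaker unc-40 peak lay in an intron at 5690115 to 5690384, 1253 bp downstream of the 5' end, with a pooled signal of 77.2 (44.5 and 32.7 in replicates 1 and 2). The unc-40 region also held 10 pooled calls below the IDR list. The strongest, at 49.2, lay 1627 bp past the 3' end of unc-40 and 428 bp upstream of aprt-1. Some of the others lay inside npp-7.

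The gene drag-1, which codes for a GPI-anchored protein of the repulsive guidance molecule family and a BMP co-receptor, had no call upstream or in its body. The gene (WBGene00022154, forward strand, I 1680446 to 1685203) was counted through a single peak 2587 bp past its 3' end, at 1687655 to 1687924. That summit lies inside the gene Y71G12B.31, 267 bp downstream of its 5' end. The pooled signal was 78.2, with 50.2 in replicate 1 (rank 4702) and 30.2 in replicate 2 (rank 6913). This was also the only pooled call in the whole drag-1 region, although the pooled list reaches well below the IDR list.

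The tetraspanins are small proteins that cross the membrane several times and organise other membrane proteins. TSP-12 and TSP-14 are close relatives that act redundantly, and TSP-21 promotes the same signal. Their genes did not share a pattern. The gene tsp-12 (WBGene00006638, reverse strand, IV 10149166 to 10150602) had a peak of 77 bp at 10151624 to 10151700, with a pooled signal of 154. The signal was 85.5 in replicate 1 (rank 2270) and 62.8 in replicate 2 (rank 2673). The summit lay 1051 bp upstream of tsp-12 and 294 bp upstream of copg-1, which points away and codes for a subunit of the COPI vesicle coat. Between this peak and the tsp-12 start, 2 calls stayed below the IDR list, each with a call of 1 replicate at its summit. The call 295 bp upstream had a pooled signal of 25.0 (16.9 in replicate 1), and the call 498 bp upstream had 21.3 (25.4 in replicate 2).

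The gene tsp-21 (WBGene00023491, forward strand, X 9932371 to 9937133) had its peak on its own start, 77 bp downstream of the first 5' end. The pooled signal was 79.9, with 38.9 in replicate 1 (rank 6465) and 42.9 in replicate 2 (rank 4549). The summit also lies in the small noncoding RNA genes C17G1.9 and C17G1.11, and a 5' end of nra-3, which points away, is 986 bp upstream. Of the 3 tetraspanin genes this was the one with a summit within 1000 bp of a 5' end of its own.

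The gene tsp-14 (WBGene00006640, reverse strand, X 4866681 to 4876965) had 6 pooled calls and no IDR peak. The strongest lay in an intron at 4872863 to 4873132 with a pooled signal of 46.7 at rank 9492, against 61.96 for the weakest IDR peak. It was called in replicate 1 at 30.2 (rank 8543) and in replicate 2 at 17.6 (rank 12603). A call 254 bp upstream of the outermost 5' end of tsp-14 had a pooled signal of 34.5. The intronic summit also lies inside the annotated gene F39C12.8, and this upstream summit inside T07F12.10.

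LON-2, the glypican, is a heparan sulfate proteoglycan that binds the ligand, and its loss makes long worms. The gene lon-2 (WBGene00003056, reverse strand, X 4738964 to 4749083) missed the IDR list narrowly. Its strongest call, in an intron at 4741221 to 4741490, had a pooled signal of 61.6 at rank 7111, which is 46 places below the last of the 7065 IDR peaks. The call was at 42.1 in replicate 1 (rank 5859) and at 21.4 in replicate 2 (rank 10159). So replicate 1 alone placed it among its first 7065 calls and replicate 2 did not. A neighbouring intronic call, at 4740791 to 4741060, had a pooled signal of 54.9 and was present in both replicates, at ranks 11429 and 9254. Its summit also lies inside C39E6.12 and is nearer to the 5' end of aman-1 (7831 bp) than to that of lon-2 (8157 bp). The site at the lon-2 start, 229 bp downstream of the 5' end, reached only 36.8 and had no replicate 2 call.

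**Figure D2:**
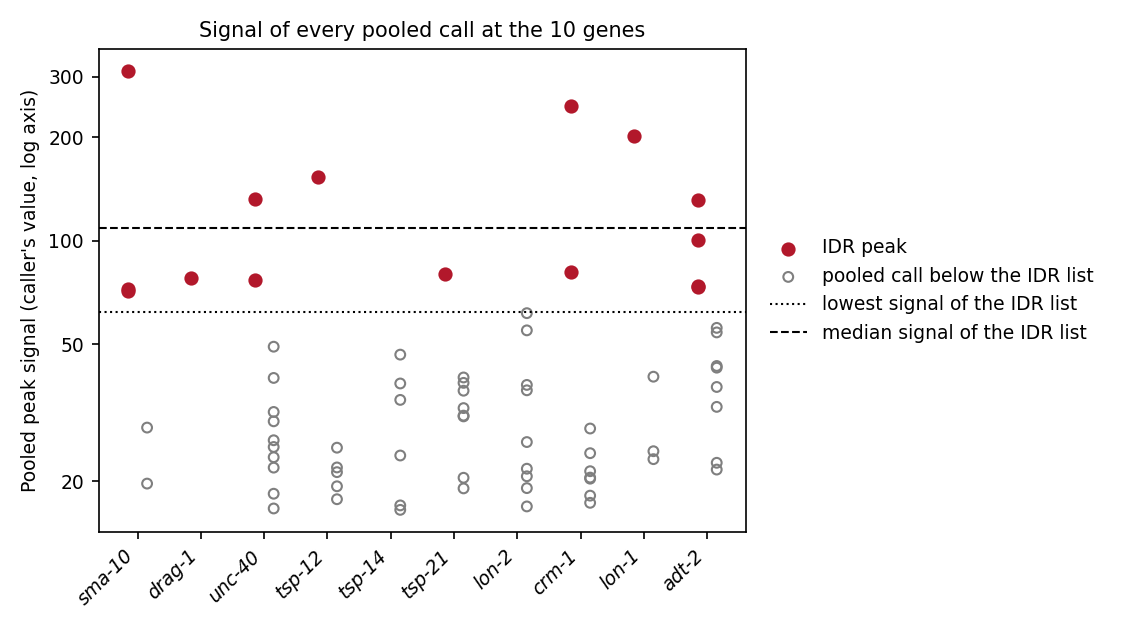
The vertical axis is the pooled peak signal (the caller's value, log axis) of every call in the searched region of each gene. Red points are IDR peaks, open grey points are calls below the IDR list, the dotted line is the lowest IDR signal (61.96) and the dashed line the IDR median (109). The top lon-2 point lies just under the dotted line.

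Among the genes of extracellular proteins, crm-1 and lon-1 had strong peaks away from their starts. CRM-1 resembles vertebrate CRIM1. The gene crm-1 (WBGene00007103, reverse strand, V 10322283 to 10332112) had its stronger peak 1915 bp past its 3' end, at 10320307 to 10320445, with a pooled signal of 247. The signal was 149.8 in replicate 1 (rank 914) and 99.5 in replicate 2 (rank 1262). This summit lay 217 bp upstream of gna-1, which codes for a glucosamine-phosphate acetyltransferase, so it is at the start of a different gene. A peak upstream of crm-1 itself, at 10333846 to 10334115 and 1869 bp from its outermost 5' end, had a pooled signal of 81.3 (42.8 and 35.2 in replicates 1 and 2). The body of crm-1, with 4 annotated 5' ends, held pooled calls of 28.5 at most.

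The gene lon-1 is known as a target that the DBL-1 pathway represses. The gene (WBGene00003055, forward strand, III 5474476 to 5478005) had an IDR peak 1566 bp upstream of its first 5' end, at 5472883 to 5473024, with a pooled signal of 202, higher than 79.8% of the IDR peaks. Replicate 2 had a signal of 126 there (rank 812). In replicate 1 no call contained the pooled summit, but a call of 91 bp began 9 bp beside it, at 5472919 to 5473009, with a signal of 81.2 at rank 2442. That call overlapped the IDR peak, so both replicates had a call at this site. No other protein-coding 5' end was nearer than 5401 bp on either side, and the window had the highest share of G and C of the 15 peaks. The lon-1 start, 114 bp upstream of the first 5' end, had a call of 40.3 in the pooled list, present in both replicates at 19.9 and 24.9.

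The protease gene adt-2, whose product affects body size and cuticle collagen, carried the most peaks, with 4. Of all protein-coding genes, 2.39% had 4 or more by the same rule. That share covers genes of all lengths, with a median of 2027 bp, while adt-2 has 9208 bp. It was not taken among long genes. Of the 4 peaks, 2 had the 5' end of adt-2 as their nearest. The relatives adt-1 and mig-17 had 3 peaks each. The gene (WBGene00000083, forward strand, X 7586209 to 7595416) had none near its outermost 5' end. Its strongest peak lay 805 bp past the 3' end at 7596086 to 7596355, with a pooled signal of 132 (84.1 in replicate 1 and 40.2 in replicate 2), and 706 bp upstream of C44E12.1. A peak at 7598132 to 7598401, inside C44E12.1, had 73.2 (46.6 and 22.9). A peak at 7594208 to 7594477 had 100.4 (51.8 and 52.6), in a 3' UTR of an annotated transcript and 771 bp downstream of an internal 5' end. A peak 2057 bp upstream of the gene, at 7584017 to 7584286, had 73.9 and was the least even of the 15, at rank 3889 in replicate 1 and 12857 in replicate 2. Its summit also lies inside the annotated genes F08C6.10 and F08C6.15. The call nearest to the adt-2 start, 376 bp upstream, stayed below the IDR list at 55.8.

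Replicate 1 and replicate 2 were set beside each other by rank, since signals of different lists are not on a common scale. Of the 15 summits, 14 lay inside a call of each replicate, and all 15 peaks overlapped a call of each. Over the whole IDR list the shares were 95.2% and 97.6%. In replicate 1, 14 of the 15 summits lay inside a call among the first 7065, with lon-1 as the exception, and in replicate 2, 12 did. The exceptions in replicate 2 were the peak past the 3' end of sma-10 (rank 10184) and the outer peaks of adt-2 (ranks 12857 and 9495). The IDR list was derived from these replicates, so these shares and counts are not independent of it. For the counts among the first 7065 calls, no share over the whole IDR list was taken, so they are a description only.

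**Figure D3:**
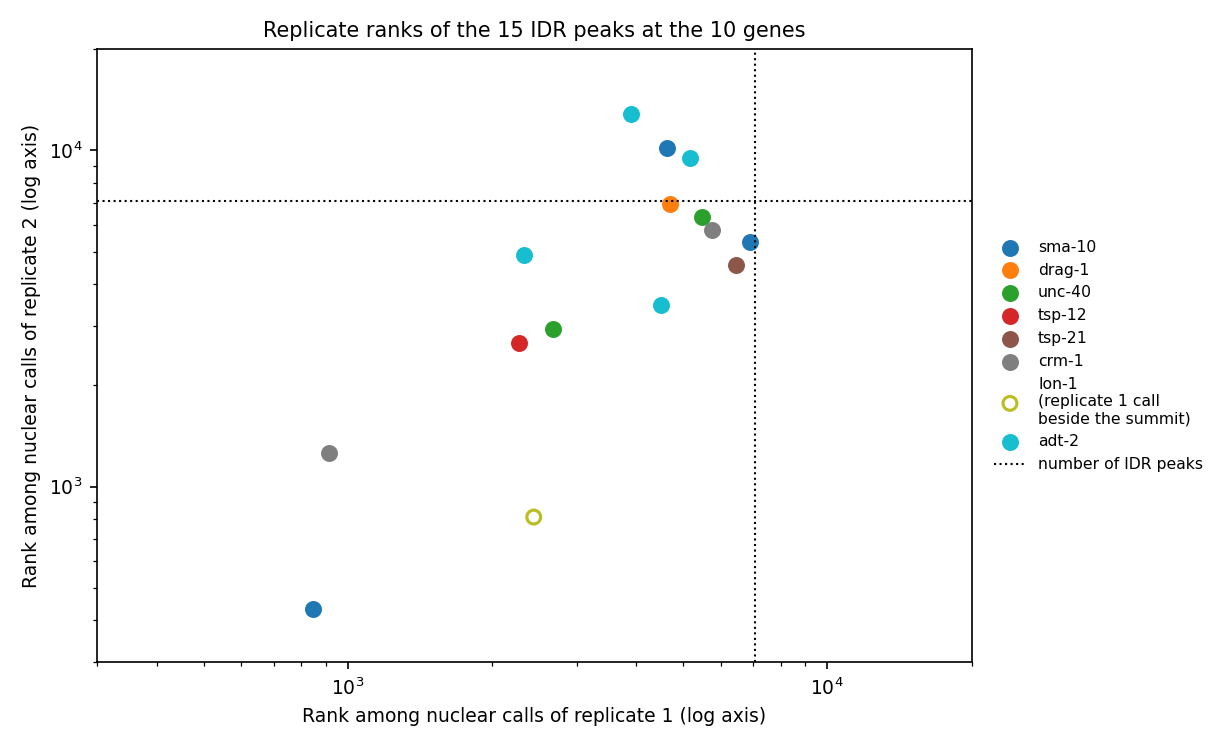
The axes are the ranks of each of the 15 IDR peaks among the nuclear calls of replicate 1 and of replicate 2 (log axes, low rank means strong), coloured by gene. The dotted lines mark rank 7065, and the open point is lon-1, whose replicate 1 call lies beside the summit. The sma-10 promoter peak is at the lower left, and 3 points lie above the line for replicate 2.

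In strength the modulator peaks lay on both sides of the median of the IDR list, which by definition splits that list evenly. Of the 15, 6 were above the list's median signal of 109 and 9 below it, and the median of the 15 was 81.3, with a range of 71.3 to 311. Taking only the strongest peak of each called gene, the median was 143 over the 8 modulator genes, against 133 over the 7955 called protein-coding genes. A strongest signal over 100 was found at 6 of the 8, and at 68.8% of called genes. At crm-1, tsp-12, adt-2 and drag-1 the strongest peak had the 5' end of another gene as its nearest. Counting only peaks nearest to the gene's own 5' end, the strongest signal was 81.3 at crm-1 and 100.4 at adt-2. By that count tsp-12 and drag-1 had no peak, and sma-10, unc-40, tsp-21 and lon-1 kept their strongest peak. The highest signal of the list was 2844.

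Of the 15 summits, 6 lay upstream of the gene, 5 past its 3' end, 3 in introns and 1 in a 3' UTR. So 11 of the 15 lay outside the gene, against 80.6% of the 13189 pairs of a summit and a protein-coding gene found by the same rule. The flanks made up 45.8% of the searched modulator regions. No modulator summit lay in a coding exon, and 1.59% of all pairs had one there. For 9 of the 15 the nearest protein-coding 5' end was that of the modulator gene, and for 6 it belonged to a neighbour. This split was not taken over all pairs. Counting a gene only where its own 5' end was the nearest left 6 of the 10, without drag-1 and tsp-12, and this rule called 21.9% of all protein-coding genes. Within 1000 bp of a 5' end, 4 of the 10 were called (sma-10, unc-40, tsp-21 and adt-2), against 20.2% of all. The median distance of the 15 summits to the nearest protein-coding 5' end was 771 bp, against 802 bp for all IDR summits.

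Calls below the IDR list were present at every modulator gene except drag-1. The pooled list of 30000 calls, which includes background by its name, had 73 calls in the searched regions and called all 10 genes, against 69.2% of all protein-coding genes. Of these, 58 were below the IDR list, and 20 of the 58 had a call of each replicate at the summit. The same share over all pooled calls below the IDR list was not taken, so the 20 of 58 is a description only. The number of calls below the IDR list ran from 0 at drag-1 to 10 at unc-40.

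Relatives of the modulators and the core of the pathway were read by the same rule. It called 39.8% of all protein-coding genes and 48.8% of those of 5000 bp or more, and 20.2% of all had a summit within 1000 bp of a 5' end. Of the core genes dbl-1, sma-6, daf-4, sma-2, sma-3, sma-4 and sma-9, 6 of 7 were called, and dbl-1 was not. A summit within 1000 bp of a 5' end was found at 4 of the 7. A peak with the gene's own 5' end as its nearest was found at 5, without dbl-1 and sma-4, against 21.9% of all protein-coding genes. The gene sma-9 had 10 peaks, the strongest at a signal of 1495, but the array carries sma-9 too, so binding at the gene and extra copies of its sequence cannot be told apart. The ADAMTS relatives of adt-2 were called at 4 of 4 (adt-1, adt-3, gon-1 and mig-17), with strongest signals of 165, 95.8, 101.5 and 70.6, but 1 of them, mig-17, had a summit within 1000 bp of a 5' end. The median length of these relatives was 8348 bp. No peak at adt-1 had the 5' end of adt-1 as its nearest, while adt-3, gon-1 and mig-17 each had such a peak of their own. The tetraspanin family, including the 3 modulators, was called at 8 of 21 genes and within 1000 bp of a 5' end at 1 of 21, which was tsp-21. The strongest of the family was tsp-17, with a signal of 237 at 2097 bp upstream, but the nearest protein-coding 5' end to that summit was that of another gene. The CAP family, with lon-1, was called at 7 of 27, and scl-1, scl-2 and scl-3 share a peak of signal 201 that lies 107 bp upstream of scl-2.

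Partners of the modulators were called in part. The ADAM protease gene sup-17, whose product works with TSP-12, had a signal of 142 at 484 bp upstream, the proprotein convertase gene bli-4 one of 96.3 past its 3' end, and the netrin receptor gene unc-5 one of 65.9 in an intron. The bli-4 summit had the 5' end of another gene as its nearest. The netrin gene unc-6 and madd-4, which codes for a secreted guidance protein, were not called, so 3 of 5 were. The median length of these partner genes was 11260 bp, and 39.8% of all protein-coding genes were called. Among proteoglycans, the syndecan gene sdn-1 had a signal of 62.03 and the perlecan gene unc-52 one of 70.1, while the other glypican gene, gpn-1, like lon-2, had no IDR peak.

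**Figure D4:**
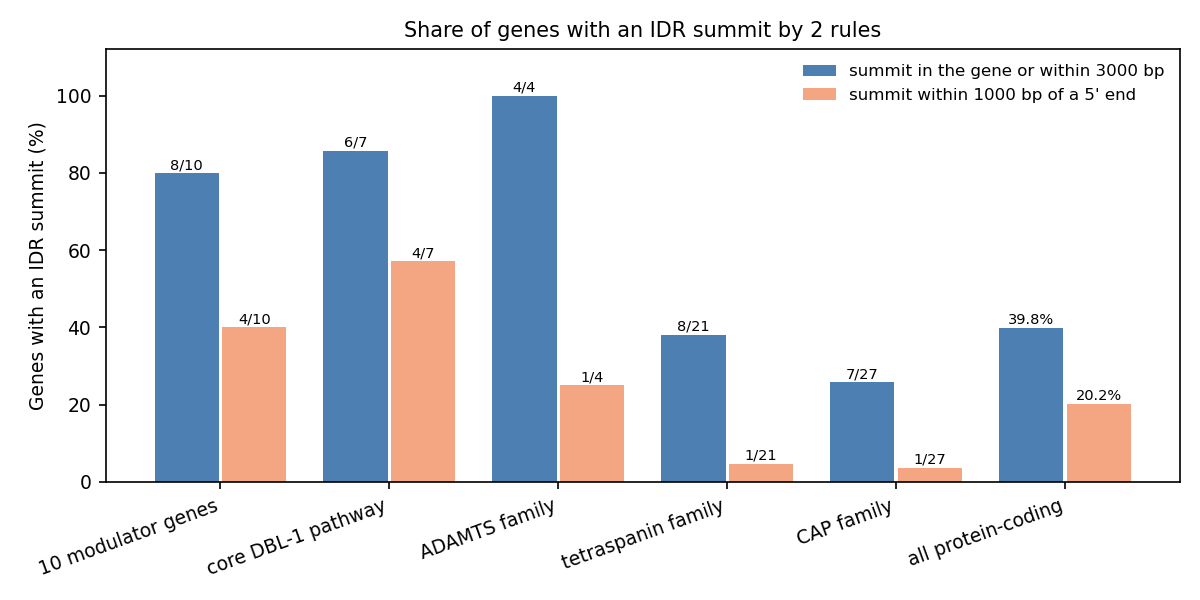
Bars give the share of genes in percent with an IDR summit in the gene or within 3000 bp (blue) and within 1000 bp of an annotated 5' end (orange), for the modulator genes, 4 lists of relatives or pathway genes, and all protein-coding genes, with counts above. The tetraspanin list includes 3 modulator genes, the CAP list includes lon-1, and the ADAMTS list leaves out adt-2. The modulator genes are at 8 of 10 and 4 of 10, against 39.8% and 20.2% of all protein-coding genes.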

How the data were processed

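ChIP-seq peak lists of 2 replicates were used. Per the file headers of the deposited sample descriptions, each replicate list on ce11 was derived from its alignments and 1 further file, a pooled list from both replicates, and the IDR list from these 3. The sources used here do not name the aligner, the peak caller or the IDR threshold. The signal is a score deposited by the authors, the caller's own value, and the −log10 q-value deposited by the authors is capped at 4.17 in every IDR peak and was not used. Without read counts the depth is unknown, and 2 replicates limit the precision. The experiment named as control was not analysed here.

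Coordinates are 1-based on ce11, which is WBcel235. Genes and 5' ends of all their transcripts came from Ensembl release 115, and sequences from the RefSeq genome of the same build, in which 99.8% of coding genes began with ATG. Summits were assigned to genes within 3000 bp with Python 3.11.15, and the rule was checked on simulated summits. Replicate ranks leave out the 17 mitochondrial calls of replicate 2. Ties to a 5' end were given to each gene. All 10 genes are named. Other genes are named at some summits that lie nearer to their 5' end or in their body, or come from context lists. Not every such neighbour of a call below the IDR list is named. The genes, lists, motifs and rules were chosen with earlier results of these data known, and the background of long genes, the rule of the nearest 5' end and the cut at 7500 calls after the values were seen. No test was run, since there is 1 group. Alternatives were another distance, the peaks above the median signal, a 1 bp overlap, either replicate alone, and the ce10 list.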

Additional observations from a re-analysis of the deposited data

How the results depend on the processing

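The 8 of 10 genes with an IDR peak became 4 within 1000 bp of the gene (against 26.8% of all protein-coding genes), where drag-1, tsp-12, crm-1 and lon-1 were lost. Only 6 of the 10 genes have 5000 bp or more, and 4 of these 6 were called, against 48.8% of all such genes. The count was 6 among peaks of higher signal (against 25.2%), 8 without replicate 1 (against 40.2%), and 9 without replicate 2 (against 39.5%) or among the first 7500 pooled calls (against 41.3%), where lon-2 was added. Without a replicate, the strongest calls of the other replicate alone were counted, and these are not IDR peaks. The 15 peaks became 7 within 1000 bp, 6 among peaks of higher signal and 9 where the gene had the nearest 5' end, and were 16 and 17 without replicates 1 and 2. The 4 genes with a summit within 1000 bp of a 5' end became 3 within 500 bp (against 15.4%), where adt-2 was lost, 7 within 2000 bp (against 27.6%) and 2 among peaks of higher signal (against 11.8%). The median strongest signal, 143 by the main rule, was 132 over the 4 genes called within 1000 bp. The same median over all called genes was not taken at that distance. Under a distance of 5000 bp the counts of genes and peaks stayed at 8 and 15 while the share of all genes called was 49.8%, and under an overlap of 1 bp they stayed at 8 and 15 against 40.6%. The strongest peak of each of the 8 genes had 1 match in the ce10 list by width and signal. No paired analysis was possible because there is 1 group. Unknown depth and 2 replicates limit how far a missing peak can be read, and the transgenic fusion was not set against a worm without it.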
